A study of Mus musculus with 78 samples.

Results

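The 9 genes described here are markers and regulators of primitive and definitive endoderm: *Gata6*, *Gata4*, *Sox17*, *Sox7*, *Foxa2*, *Hnf4a*, *Pdgfra*, *Dab2* and *Cubn*. They were chosen by name, with earlier results of these data known but by no rule on measured values, and were read out of 54446 genes in each RNA-seq table and 54435 genes in the nascent RNA table. The cells were V6.5 mouse embryonic stem cells (mESCs) in which the alleles of the heterochromatin corepressor TRIM28 carry an FKBP degron tag, in a line grown from picked single colonies, so that the small molecule dTAG-13 removes the protein. In the time course, 3 libraries each were made from poly-A RNA of tagged mESCs given 0.05% DMSO or treated with dTAG-13 at 500 nM (2, 6, 24 or 96 h), all grown in serum with LIF and cleared of feeder fibroblasts by plating on gelatin. The same line was treated for TT-SLAM-seq (3 libraries each for DMSO and for 2, 6 and 24 h of dTAG-13), which measures RNA made during a 15 min pulse of 500 µM 4-thiouridine. Total RNA was sequenced from a derived line that the labels call shREPEATS, with hairpins against the RNA of endogenous retroviruses (ERVs). Its 3 groups of 3 libraries received DMSO, 500 nM dTAG-13, or dTAG-13 together with doxycycline (Dox, 2 µg/mL), the inducer of the hairpins. The treatment notes of all 3 groups also give a 24 h pre-treatment with Dox. Only the last group is titled Dox, and whether the note holds for the others is not settled. Untagged parental V6.5 mESCs (no treatment) and neural progenitor cells (NPCs) given DMSO, of V6.5 strain with no statement in the labels of whether they carry the tag, gave 3 poly-A libraries each. ChIP-seq peaks from cells in DMSO or after 24 h of dTAG-13 cover H3K27Ac and H3K9me3 (3 libraries per condition) and RNA polymerase II (RNAPII) and the Mediator subunit MED23 (2 per condition). The labels do not say that libraries came from separate cultures, so the p-values measure only the spread between these libraries.

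Endoderm arises at separate stages of mouse development. Primitive endoderm separates from the pluripotent epiblast in the blastocyst, under GATA6 and then GATA4, SOX17 and SOX7, and builds the yolk sac, whereas definitive endoderm leaves the epiblast at gastrulation with SOX17 and FOXA2 and builds the gut. mESCs stand for the epiblast, and forced expression of GATA6 is known to convert them to primitive endoderm.

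RefSeq (GRCm38.p6, the assembly of mm10) gave 9 promoters, each 250 bases before to 50 bases after a start, for 5 of the 9 genes: *Foxa2*, *Hnf4a*, *Pdgfra*, *Dab2* and *Cubn*. The 4 shown belong to *Foxa2* and *Dab2*, which rose at 96 h, and *Pdgfra*, which was higher in NPCs, and 3 of them overlap MED23 peaks described further on. They run 5′ to 3′ on the gene's strand, with matches to the GATA motif AGATAA in capitals, on either strand.
Foxa2 promoter 1, chr2:148045415-148045714, minus strand: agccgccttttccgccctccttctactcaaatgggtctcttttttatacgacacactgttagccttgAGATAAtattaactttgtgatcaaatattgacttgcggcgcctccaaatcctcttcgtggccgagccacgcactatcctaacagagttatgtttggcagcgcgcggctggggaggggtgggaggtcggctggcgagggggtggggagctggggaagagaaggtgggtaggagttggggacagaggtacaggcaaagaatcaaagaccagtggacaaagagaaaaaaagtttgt
Pdgfra promoter 1, chr5:75152001-75152300, plus strand: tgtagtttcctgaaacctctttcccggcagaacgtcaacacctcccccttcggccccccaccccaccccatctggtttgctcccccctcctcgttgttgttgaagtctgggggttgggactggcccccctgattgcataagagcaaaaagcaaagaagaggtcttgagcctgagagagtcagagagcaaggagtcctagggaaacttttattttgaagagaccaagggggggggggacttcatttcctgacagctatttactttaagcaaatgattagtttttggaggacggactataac
Dab2 promoter 1, chr15:6299539-6299838, plus strand: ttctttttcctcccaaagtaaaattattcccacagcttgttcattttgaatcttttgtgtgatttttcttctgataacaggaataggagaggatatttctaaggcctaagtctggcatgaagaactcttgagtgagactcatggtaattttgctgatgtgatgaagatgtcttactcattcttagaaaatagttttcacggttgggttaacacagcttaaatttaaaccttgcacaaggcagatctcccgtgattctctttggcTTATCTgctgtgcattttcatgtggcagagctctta
Dab2 promoter 2, chr15:6386498-6386797, plus strand: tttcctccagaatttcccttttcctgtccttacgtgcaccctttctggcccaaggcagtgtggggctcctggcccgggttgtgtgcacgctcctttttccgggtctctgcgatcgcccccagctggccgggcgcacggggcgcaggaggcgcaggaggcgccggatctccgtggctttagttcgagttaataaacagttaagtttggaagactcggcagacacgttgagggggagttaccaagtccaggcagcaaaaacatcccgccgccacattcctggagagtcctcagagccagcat
AGATAA was found in *Foxa2* promoter 1, 183 bases before the start on the gene's strand, in *Dab2* promoter 1, 15 bases after the start on the opposite strand, and in *Hnf4a* promoter 1, 52 bases before the start. It occurs in 11.2% of all 32851 promoters. The SOX motif AACAAT (10.7% of promoters) and the FOXA motif TGTTTAC (3.65%) had no match in the 9. The *Dab2* promoters differ in composition, the first with 37.7% GC and 2 CpG dinucleotides, the second with 59.3% GC and 19.

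*Gata6* (ENSMUSG00000005836.9) lies on mm10 chromosome 18 from 11052508 to 11085635, plus strand, and *Gata4* (ENSMUSG00000021944.15) on chromosome 14 from 63198922 to 63271692, minus strand. The SOX genes *Sox17* (ENSMUSG00000025902.13) and *Sox7* (ENSMUSG00000063060.6) lie on chromosome 1 from 4490931 to 4497354, minus strand, and on chromosome 14 from 63943673 to 63950732, plus strand. *Foxa2* (ENSMUSG00000037025.11; 148042877 to 148046969, minus strand), *Hnf4a* (ENSMUSG00000017950.16; 163506808 to 163572910, plus strand) and *Cubn* (ENSMUSG00000026726.10; 13276338 to 13491813, minus strand) share chromosome 2. *Pdgfra* (ENSMUSG00000029231.15) lies on chromosome 5 from 75152292 to 75198215, plus strand, and *Dab2* (ENSMUSG00000022150.16) on chromosome 15 from 6299788 to 6440712, plus strand.

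In tagged mESCs in DMSO the endoderm genes were present at low levels. *Dab2* was the most abundant, at 9.60 ± 1.11 TPM (a level per transcript length and library; mean ± SD, n = 3 here and below), followed by *Gata4* at 3.69 ± 0.453, *Gata6* at 1.41 ± 0.274, *Cubn* at 1.15 ± 0.205 and *Sox7* at 1.08 ± 0.125 TPM. The last 3 in that order did not differ beyond their spread. *Sox17* (0.853 ± 0.471), *Pdgfra* (0.775 ± 0.0720), *Foxa2* (0.654 ± 0.194) and *Hnf4a* (0.118 ± 0.100 TPM) stood below 1 TPM. A gene was called changed at an adjusted p below 0.05 (limma on log2(TPM + 0.5), Benjamini-Hochberg over all genes tested) together with a difference over 2-fold, among genes that reached 1 TPM in 3 or more libraries. In the time course 7 of the 9 genes passed that minimum, *Foxa2* through the 96 h libraries alone, and *Hnf4a* and *Cubn* did not, so both fits with and without the minimum are given.

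No endoderm gene was called changed within the first 6 h of TRIM28 degradation. At 2 h this held for the 7 genes tested, against 0.374% of all 17922 genes tested, and 1 had an unadjusted p below 0.05, namely *Gata4*, with 4.1, 3.75 and 3.20 TPM in DMSO against 2.76, 2.59 and 3.08 TPM (log2 difference -0.34, adjusted p = 0.0616). At 6 h none was changed (0.965% of all genes) and none had an unadjusted p below 0.05.

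After 24 h again none of the 7 tested genes was changed, against 12.2% of all genes. An unadjusted p below 0.05 was found for 6, and an adjusted p below 0.05 for 5 of the 7, a share close to the 67.9% of all genes. *Dab2*, a clathrin adaptor that sorts receptors for endocytosis and is needed to position the endoderm layer, read 9.13, 10.9 and 8.81 TPM in DMSO and 18.5, 19.2 and 18.7 TPM at 24 h. Every treated library was above every control, and the difference of 0.94 ± 0.11 (log2, SE; adjusted p = 3.37e-06) fell just short of 2-fold. *Sox7*, a transcription factor of the same subgroup as SOX17, read 0.973, 1.22 and 1.05 TPM in DMSO and 0.272, 0.308 and 0.499 TPM at 24 h. The *Sox7* groups did not overlap, and its level was lower by 3.00-fold of the means but by less on the tested scale, where the pseudocount of 0.5 damps low genes (log2 -0.88 ± 0.14, adjusted p = 5.97e-05). With a pseudocount of 0.1, or with every library centred on its median, *Sox7* counted as changed (log2 -1.39 and -1.17).

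Smaller 24 h differences ran in both directions. *Pdgfra*, a receptor tyrosine kinase on primitive endoderm and mesenchyme, was above DMSO in all 3 libraries (1.19, 1.50 and 1.19 against 0.761, 0.711 and 0.853 TPM; log2 0.49, adjusted p = 0.00950), and *Sox17* by 0.54 with overlapping groups (adjusted p = 0.0470). *Gata6* (-0.32, adjusted p = 0.0507) and *Foxa2* (-0.42, adjusted p = 0.0480) were lower, while *Gata4* was at 0.22 (adjusted p = 0.0977). The median gene also moved, by 0.13, and after centring each library on its median *Sox17* (adjusted p = 0.339) and *Pdgfra* (0.242) no longer passed the p threshold, *Gata6* (0.00140) and *Foxa2* (0.00291) did, and *Gata4* was at -0.07. *Cubn* was lower by 0.44 in the fit with no minimum (log2 -0.44, adjusted p = 0.0133).

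By 96 h the endoderm genes had parted: *Gata6*, *Sox17*, *Foxa2* and *Dab2* rose, *Gata4* and *Pdgfra* were higher by about 2-fold or less, and *Cubn* fell. In the fit with no minimum, which covers all 9 genes, 4 rose and 1 fell, against 10.8% of all 37078 genes higher and 6.23% lower. With the minimum, 4 of 7 tested genes were changed, all higher, against 32.7% of 17922 genes (20.3% higher). Between DMSO and 96 h, 7 of those 7 had groups that did not overlap, as did 83.1% of all genes tested.

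**Figure D1:**
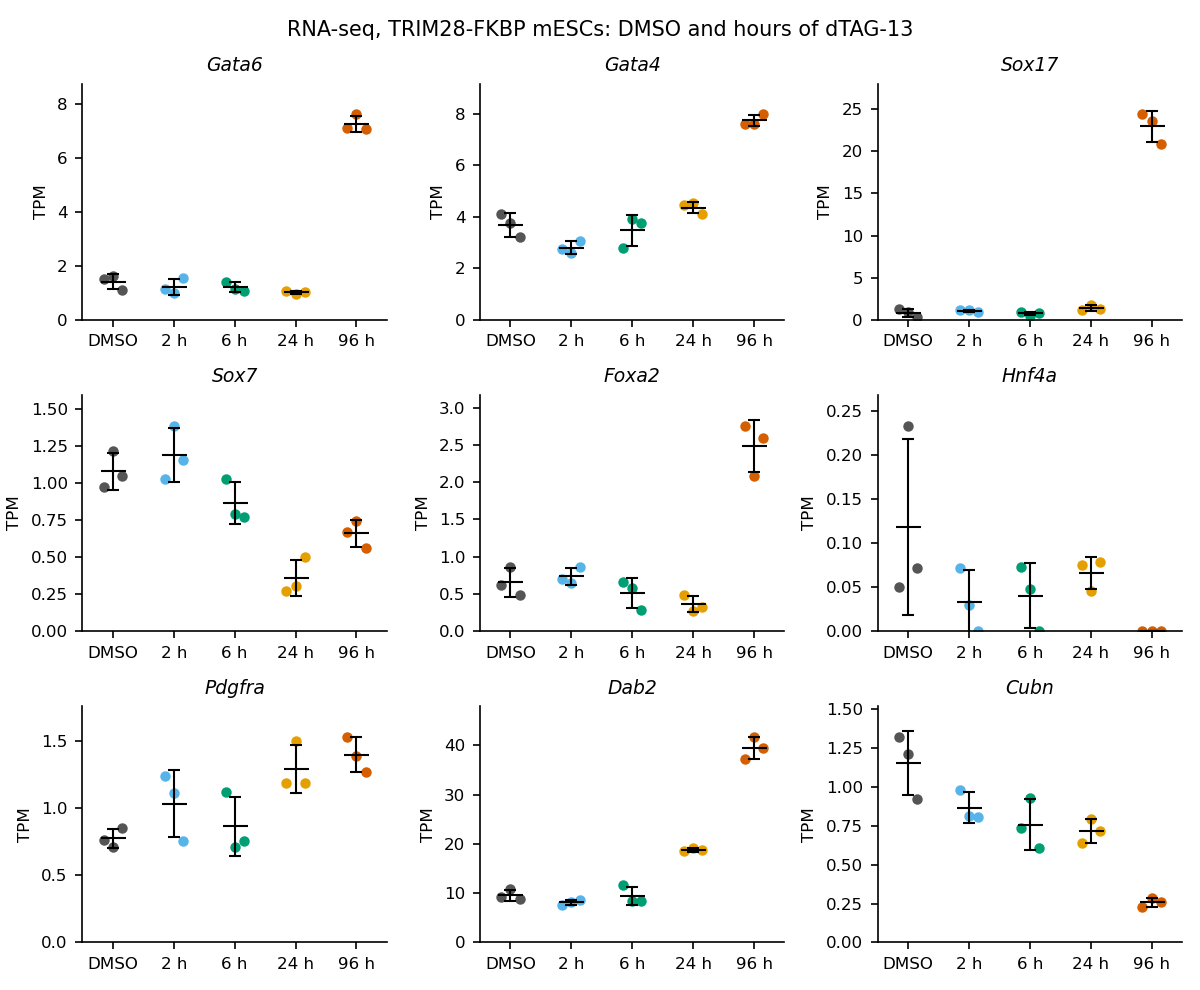
RNA-seq level (TPM, linear axis from 0) of each endoderm gene in tagged mESCs in DMSO and after 2, 6, 24 and 96 h of 500 nM dTAG-13. Points are libraries and bars the mean ± SD of 3. *Sox17*, *Gata6* and *Foxa2* are high at 96 h alone, *Dab2* is high at 24 h and higher at 96 h, and *Cubn* declines.

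*Gata6*, the zinc finger factor that opens the primitive endoderm programme, read 1.49, 1.63 and 1.10 TPM in DMSO and 7.11, 7.60 and 7.04 TPM at 96 h. All 3 late libraries lay far above every earlier one, a 5.15-fold rise of the mean (log2 2.03 ± 0.14, adjusted p = 3.47e-09). The level at 24 h had been 1.02 ± 0.0531 TPM, so that 96 h stood 7.13-fold above 24 h (log2 2.35). *Gata4*, which acts with and downstream of GATA6, read 7.63, 7.63 and 7.99 TPM at 96 h. Its groups did not overlap and its mean was 2.10-fold that in DMSO, but the tested log2 difference of 0.98 ± 0.11 (adjusted p = 1.49e-06) stayed under 2-fold. With a pseudocount of 0.1 or without DMSO replicate 1 it was 1.06 and counted as changed.

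*Sox17*, an HMG-box factor of both endoderm lineages, moved furthest, from 1.26, 0.956 and 0.339 TPM in DMSO to 24.4, 23.6 and 20.9 TPM at 96 h. The lowest late library was many times the highest control, 26.9-fold in the mean (log2 4.18 ± 0.23, adjusted p = 3.06e-10). Between 24 and 96 h the rise was 16.4-fold, from 1.40 ± 0.339 TPM (log2 3.64). *Sox7* took the other course. It read 0.673, 0.748 and 0.564 TPM at 96 h, below every DMSO library (log2 -0.44 ± 0.14, adjusted p = 0.00899) and above every 24 h library (log2 0.44, adjusted p = 0.00956).

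*Foxa2*, a forkhead factor that opens chromatin in definitive endoderm and the midline, read 0.615, 0.865 and 0.483 TPM in DMSO and 2.76, 2.09 and 2.60 TPM at 96 h. The groups were well apart, with a 3.79-fold higher mean at 96 h (log2 1.38 ± 0.18, adjusted p = 4.40e-06). Since only the 96 h libraries carried it past the minimum, the value without it matters (adjusted p = 2.45e-05). *Hnf4a*, a nuclear receptor of visceral endoderm and liver, was never above 0.233 TPM in the time course, and was listed at 0 in all 3 libraries at 96 h.

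*Pdgfra* read 1.53, 1.39 and 1.27 TPM at 96 h, above DMSO throughout (log2 0.57 ± 0.15, adjusted p = 0.00265) and overlapping with 24 h (log2 0.08, adjusted p = 0.615). *Dab2* read 37.2, 41.7 and 39.5 TPM at 96 h. That was 4.11-fold the DMSO level (log2 1.99 ± 0.11, adjusted p = 3.47e-10) and 2.10-fold the 24 h level (log2 1.05 ± 0.11, adjusted p = 5.39e-07), and the 3 groups formed separate steps. *Cubn*, the endocytic receptor cubilin of visceral endoderm and kidney, went the opposite way, from 1.32, 1.21 and 0.923 TPM in DMSO through 0.638, 0.791 and 0.713 TPM at 24 h to 0.229, 0.286 and 0.258 TPM at 96 h. No 2 of these 3 groups overlapped, and the fall to 96 h was 4.46-fold in the mean (log2 -1.12, adjusted p = 5.87e-06 with no minimum). From 24 to 96 h, *Gata6*, *Sox17*, *Foxa2* and *Dab2* were the changed genes, all higher, against 30.2% of genes tested (13.7% higher). The 24 and 96 h comparisons share the DMSO libraries.

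Over the 15 time-course libraries, log2(TPM + 0.5) of *Gata6* followed that of *Sox17* (Pearson r = 0.96) and *Foxa2* (0.96) more closely than that of *Dab2* (0.82), and *Dab2* followed *Gata4* (0.92). *Cubn* ran against *Sox17* (-0.86) and *Dab2* (-0.85), and *Sox7* ran with neither *Gata6* (-0.11) nor *Foxa2* (0.06). The points share 1 cell line and the 96 h libraries set most of the range, so these values describe the course only. Of all genes tested, the 2 most like *Sox17* were *S100a10* (r = 0.991) and *Tshz1* (0.991), which also followed it in the 9 shREPEATS libraries (0.958 and 0.950). The 2 most like *Gata6* were *Bex1* (0.993) and *Canx* (0.991), which in the shREPEATS libraries ran against it (-0.835 and -0.744). For *Dab2* they were *Rrbp1* (0.992) and *Man1c1* (0.992), for *Foxa2* *Psmd8* (0.984) and *Agpat2* (0.977), and for *Gata4* *Dcaf5* (0.976) and *Plekha8* (0.976). For *Cubn* they were *Eprs* (0.969) and *Ciart* (0.967), for *Sox7* *1110059E24Rik* (0.956) and *Pym1* (0.943), and for *Pdgfra* *Usp49* (0.906) and *Zbtb20* (0.904). In the shREPEATS libraries the r of these further pairs was lower, from -0.300 (*Sox7* with *Pym1*) to 0.811 (*Cubn* with *Ciart*).

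Other genes of the endoderm programme also moved unevenly at 96 h. Of a list of 30, 22 were tested, 10 were higher and 4 lower, with a median log2 difference of 0.47 against 0.05 for all genes. Basement membrane components, which parietal endoderm secretes in bulk, moved both ways, with *Lama1* lower and the following genes higher. *Col4a1* went from 50.8 to 265.1 TPM, *Col4a2* from 33.4 to 217.7, *Sparc* from 261.3 to 1405.4, *Lamb1* from 92.1 to 236.5 and *Lamc1* from 129.6 to 262.8 TPM (means of 3). Parietal endoderm also makes thrombomodulin (*Thbd*, 0.286 to 5.19 TPM) and tissue plasminogen activator (*Plat*, 3.40 to 36.5 TPM), and the signalling ligand *Bmp2* went from 0.763 to 27.5 TPM. The chemokine receptor *Cxcr4*, a marker of definitive endoderm, rose from 0.707 to 2.43 TPM. *Lefty1* (203.6 to 38.2 TPM), *Lama1* (12.7 to 4.64), *Apom* (1.15 to 0.295) and *Amn*, the membrane partner of cubilin (2.21 to 0.675 TPM), fell. The yolk sac secretory genes *Afp*, *Ttr* and *Apoa4*, and the anterior endoderm inhibitor *Cer1*, were listed at 0 in DMSO and at 96 h. At 24 h, 2 of the 22 were changed, *Apom* and the activin inhibitor *Fst*, both lower.

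Markers of other cell types moved in the same libraries. Of 14 fibroblast genes (feeders had been plated out), 12 were tested and 10 were higher at 96 h, among them *Col1a1* (8.16 to 182.9 TPM), *Col1a2* (2.56 to 50.6), *Col3a1* (0.539 to 20.5), *Postn*, *Pdgfrb*, *Twist1*, *Twist2*, *Prrx1*, *Lox* and *S100a4*. Their summed level was 33.0 to 36.7 TPM in DMSO, 38.9 to 43.8 at 24 h and 327.9 to 350.6 TPM at 96 h, with *Fap* at 0 in both and *Lum* at 0 in DMSO. The 7 trophoblast genes summed to 41.9 to 45.8 TPM in DMSO and 166.2 to 178.9 TPM at 96 h. Of the 5 tested, *Gata3* and *Krt7* were higher. The summed level of the 7 genes of primitive streak and mesoderm went from 12.9 to 16.4 TPM up to 71.1 to 80.8 TPM. Of the 5 tested, only *Foxf1* and *Hand1* were higher and 0 were lower. Their median log2 difference was -0.03, against 0.05 for all genes, so this list did not rise as a whole. Endothelial genes, which share *Sox17* and *Sox7* as regulators, summed to 12.4 to 13 and 7.66 to 8.60 TPM (*Kdr* higher, *Tek* lower), and of the neural genes *Pax3* was higher and *Sox1* lower. All 9 pluripotency genes fell, from summed levels of 4075.2 to 4434.0 TPM to 346.7 to 397.4 TPM. Each of these sets was measured beside the endoderm genes, and their part in the endoderm values was not tested. In bulk RNA, more cells of a type and more RNA per cell cannot be told apart.

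In the shREPEATS line the comparisons asked how 24 h of TRIM28 degradation changed the genes, and how levels differed when Dox was also given. For the group titled Dox, the notes place Dox 24 h before dTAG-13. A lower level with Dox is therefore not the reversal of an earlier rise. *Sox17* alone among the endoderm genes was changed in this line. It read 0.354, 0.795 and 0.583 TPM in DMSO, 3.77, 3.36 and 4.62 TPM in dTAG-13, and 1.25, 1.03 and 0.361 TPM in dTAG-13 with Dox. The dTAG-13 libraries stood above both other groups, which overlapped each other. The level in dTAG-13 was 6.78-fold that in DMSO (log2 2.05 ± 0.25, adjusted p = 3.04e-05). With Dox it was 4.45-fold lower than in the dTAG-13 group (log2 -1.73 ± 0.25, adjusted p = 0.000143). *Sox17* passed the minimum only through the dTAG-13 libraries, and without it the adjusted p-values were 0.00142 and 0.00400. In that fit 1 of 9 endoderm genes was changed in each comparison, against 1.90% and 1.73% of 35885 genes. With the minimum the background was 3.82% (2.38% higher) and 3.45% (1.96% lower) of 16166 genes.

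The other genes of this line moved by less than 2-fold. *Gata6* read 2.68, 3.03 and 2.67 TPM in DMSO, 1.98, 2.00 and 2.45 TPM in dTAG-13 and 2.63, 2.90 and 2.78 TPM with Dox. The dTAG-13 group was the low one and overlapped neither of the others (log2 -0.32, adjusted p = 0.0210, and then 0.31, adjusted p = 0.0286). *Dab2* read 10.9, 13 and 13.2 TPM in DMSO, 15.0, 13.2 and 15.6 TPM in dTAG-13 and 12.4, 12.8 and 10.1 TPM with Dox. Its log2 differences were 0.23 (adjusted p = 0.0708) and -0.31 (adjusted p = 0.0272). *Gata4* was at 0.31 (adjusted p = 0.0417) and -0.15 (adjusted p = 0.320), and *Pdgfra* at 0.08 (adjusted p = 0.714) and 0.05 (adjusted p = 0.841). *Cubn*, below the minimum, averaged 0.516 ± 0.0678 TPM in DMSO, 0.284 ± 0.0831 in dTAG-13 and 0.494 ± 0.0384 TPM with Dox, the dTAG-13 group again lowest and apart. *Sox7* and *Foxa2* stayed between 0.316 and 0.699 TPM in all 9 libraries. *Hnf4a* was listed at 0 in all 3 dTAG-13 libraries and was at most 0.0615 TPM in the rest.

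Between dTAG-13 with Dox and DMSO, a comparison added after the data were seen, limma called none of the 5 tested endoderm genes and none had an unadjusted p below 0.05. The background was 0.0186% of genes, 3 in all. For *Sox17* the difference was 0.31 (95% confidence interval -0.22 to 0.85), for *Gata6* -0.01 (-0.24 to 0.22) and for *Dab2* -0.07 (-0.29 to 0.15). The pluripotency genes moved beside these values, with summed levels of 2068.8 to 2408.9 TPM in DMSO, 1014.7 to 1044.0 in dTAG-13 and 2336.6 to 2370.4 TPM with Dox, and the fibroblast genes less, at 125.9 to 136.8, 127.9 to 143.6 and 138.3 to 143.0 TPM.

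The 24 h response was then compared between the lines in 1 fit with an interaction term. *Sox17* responded more in the shREPEATS line, by 1.50 ± 0.36 on the log2 scale (95% confidence interval 0.73 to 2.28, adjusted p = 0.00368, and 0.0185 with no minimum), and was the 1 endoderm gene of the 5 tested whose response differed over 2-fold, against 8.72% of 17653 genes. *Dab2* responded less, by -0.70 ± 0.13 (-0.99 to -0.42, adjusted p = 0.000776), under 2-fold. By adjusted p alone 2 of the 5 genes differed, against 51.4% of all genes. With no minimum *Sox7* (0.93, adjusted p = 0.00551) and *Foxa2* (0.67, adjusted p = 0.0346) also passed the p threshold. The responses of *Gata6* differed by -0.00 (-0.39 to 0.39) and those of *Gata4* by 0.08 (-0.24 to 0.40). The lines also differ in library kit (total against poly-A RNA), which cannot be told apart from the line. The same holds for the Dox pre-treatment of the notes, if the groups not titled Dox received it.

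**Figure D2:**
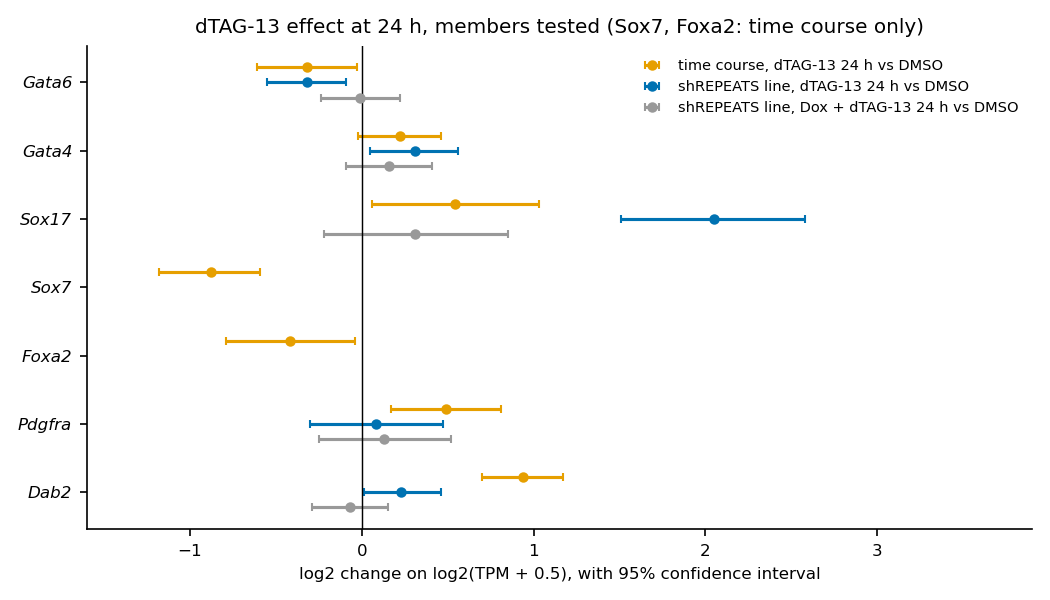
Change of log2(TPM + 0.5) with its 95% confidence interval after 24 h of dTAG-13 in the time course, and in the shREPEATS line for dTAG-13 and for dTAG-13 with Dox, each against its own DMSO group (3 libraries per group). *Sox17* in the shREPEATS line stands apart at 2.05 and is at 0.31 in the group with Dox, and *Dab2* is highest in the time course, at 0.94.

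Nascent RNA of the endoderm genes was sparse. None of the 9 reached 0.5 FPKM (reads per gene length and library size, here over the whole gene span with its introns) in 3 libraries, so none entered the fit of 13357 genes, of which 3.40% were changed at 24 h. The deposited values are whole multiples of 1 read, and from the reads so recovered (98.3% to 99.4% of low values whole within 0.1) 6 genes had enough reads for limma voom over 18953 genes, a test chosen after the data were seen. In it *Dab2*, *Pdgfra* and *Sox7* were changed at 24 h, against 17.5% of genes, none at 2 h (2.37%) and none at 6 h (2.15%). Unadjusted p-values below 0.05 were found at 2 h for *Dab2*, and at 6 h for *Gata6* and *Cubn*.

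*Dab2* read 0.0769, 0.0980 and 0.0877 FPKM in DMSO (79, 174 and 141 reads) and 0.210, 0.236 and 0.220 FPKM at 24 h (719, 683 and 201 reads). The 24 h group lay well above all others (log2 1.32 ± 0.14, adjusted p = 1.11e-07). *Pdgfra* read 0.0328, 0.0173 and 0.0229 FPKM in DMSO and 0.0449, 0.0541 and 0.0470 FPKM at 24 h, with no overlap (log2 1.07 ± 0.34, adjusted p = 0.0132). *Sox7* rested on 4, 16 and 11 reads in DMSO and 5, 12 and 0 reads at 24 h, with overlapping FPKM (log2 -1.85 ± 0.63, adjusted p = 0.0195). *Gata4* was higher without reaching 2-fold, at 0.147, 0.128 and 0.146 FPKM in DMSO and 0.249, 0.221 and 0.271 FPKM at 24 h (log2 0.80 ± 0.19, adjusted p = 0.00141). *Gata6* did not pass (0.28, adjusted p = 0.368), and *Sox17*, on 5, 6 and 8 reads in DMSO and 16, 8 and 5 at 24 h, could not be resolved at this depth, nor could *Foxa2* and *Hnf4a* on at most 8 reads in any of those libraries. *Cubn* was high at 6 h (0.0327, 0.0335 and 0.0336 FPKM against 0.0216, 0.0269 and 0.0151 in DMSO; log2 0.68, adjusted p = 0.0428) and at 0.0147, 0.0194 and 0.00859 FPKM at 24 h.

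The scaling bears on these calls, since the median of all genes was itself at 0.21 (log2) at 24 h in the FPKM fit. With median-ratio size factors in place of the totals the authors scaled by, 1 endoderm gene was changed, *Sox7* (log2 -2.20, adjusted p = 0.00812), against 12.8% of genes. *Dab2* was then at 0.96 (adjusted p = 7.19e-06), *Pdgfra* at 0.71 (adjusted p = 0.0873) and *Gata4* at 0.43 (adjusted p = 0.0745), and *Cubn* at -0.81 (adjusted p = 0.0141).

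**Figure D3:**
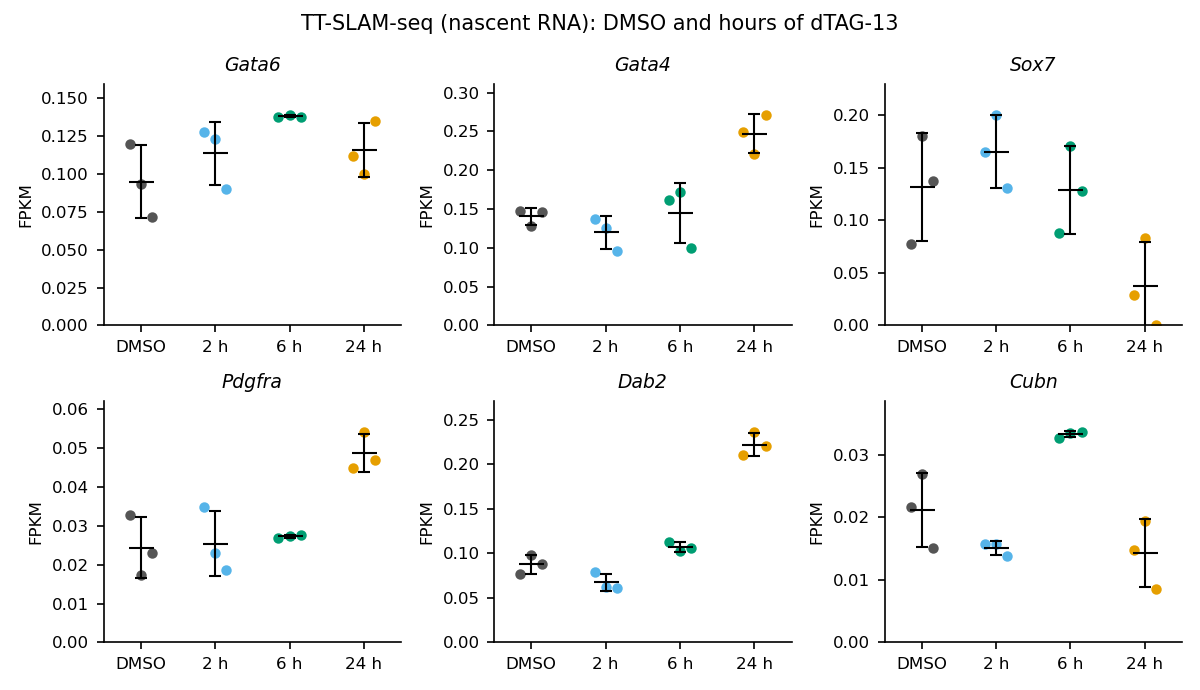
TT-SLAM-seq level (FPKM over the gene span, linear axis from 0) of the 6 endoderm genes with enough reads, in DMSO and after 2, 6 and 24 h of dTAG-13. Points are libraries and bars the mean ± SD of 3. *Dab2*, *Gata4* and *Pdgfra* are highest at 24 h with no overlap with DMSO, and *Cubn* peaks at 6 h.

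The untreated cell types gave other orders of the genes. In NPCs, *Sox17*, *Foxa2*, *Pdgfra* and *Cubn* were higher than in tagged mESCs, and with no minimum *Hnf4a* as well, 5 of 9 genes against 26.6% of 33914 genes changed. *Pdgfra*, which in neural tissue marks oligodendrocyte precursors, read 4.73, 4.84 and 5.71 TPM in NPCs against 0.761, 0.711 and 0.853 TPM (log2 2.13 ± 0.12, adjusted p = 5.71e-08, and 1.17e-06 with no minimum). *Sox17* read 6.53, 4.93 and 7.59 TPM, far above its mESC range (log2 2.39 ± 0.27, adjusted p = 1.85e-05, and 0.000167), though below every 96 h library. *Foxa2*, which in the neural tube specifies the floor plate, read 3.79, 3.15 and 2.61 TPM, again with no overlap (log2 1.67 ± 0.20, adjusted p = 2.44e-05, and 0.000202). These 3 passed the minimum only through the NPC libraries, and with it 46.6% of 17458 genes were changed (25.9% higher). *Hnf4a* had its highest level of the series here, at 0.726, 1.19 and 0.940 TPM (log2 1.23, adjusted p = 0.000141 with no minimum). *Cubn* read 3.01, 3.08 and 3.47 TPM, above all tagged mESC libraries (log2 1.17 ± 0.10, adjusted p = 2.36e-06), but at 0.96 with a pseudocount of 1 and 0.77 after centring it was not changed.

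*Dab2* in NPCs was higher by 0.82 (adjusted p = 1.14e-05), and *Sox7* was lower (log2 -0.55, adjusted p = 0.00196), both under 2-fold. *Gata6* (0.12, adjusted p = 0.390) and *Gata4* (0.26, adjusted p = 0.0443) overlapped with mESCs, and after centring were at -0.27 and -0.14. The NPC libraries carried the neural markers, with 7 of 7 higher and a summed level of 3267.4 to 3318.0 TPM, and their fibroblast genes summed to 35.4 to 36.1 TPM.

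Between parental and tagged mESCs, the question was whether the tagged line starts from the same level. *Cubn* alone was changed of the 8 genes tested, against 11.4% of 17458 genes (2.25% higher). It read 3.69, 3.65 and 3.53 TPM in parental cells against 1.32, 1.21 and 0.923 TPM, with no overlap (log2 1.33 ± 0.10, adjusted p = 3.30e-06). *Gata4*, at 1.98, 2.44 and 2.17 TPM, lay below the tagged line (log2 -0.63, adjusted p = 0.000686). *Sox17* was lower with overlapping groups (0.134, 0.444 and 0.265 TPM; log2 -0.75, adjusted p = 0.0377), and without tagged DMSO replicate 3 the difference was -1.06 and counted as changed. *Gata6*, *Sox7*, *Foxa2* and *Pdgfra* overlapped between the lines. The labels list feeder fibroblasts for the parental culture, and its fibroblast genes summed to 135.5 to 137.3 TPM against 33.0 to 36.7 TPM, with 8 of 12 tested higher. Their part in the *Cubn* value was not tested.

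**Figure D4:**
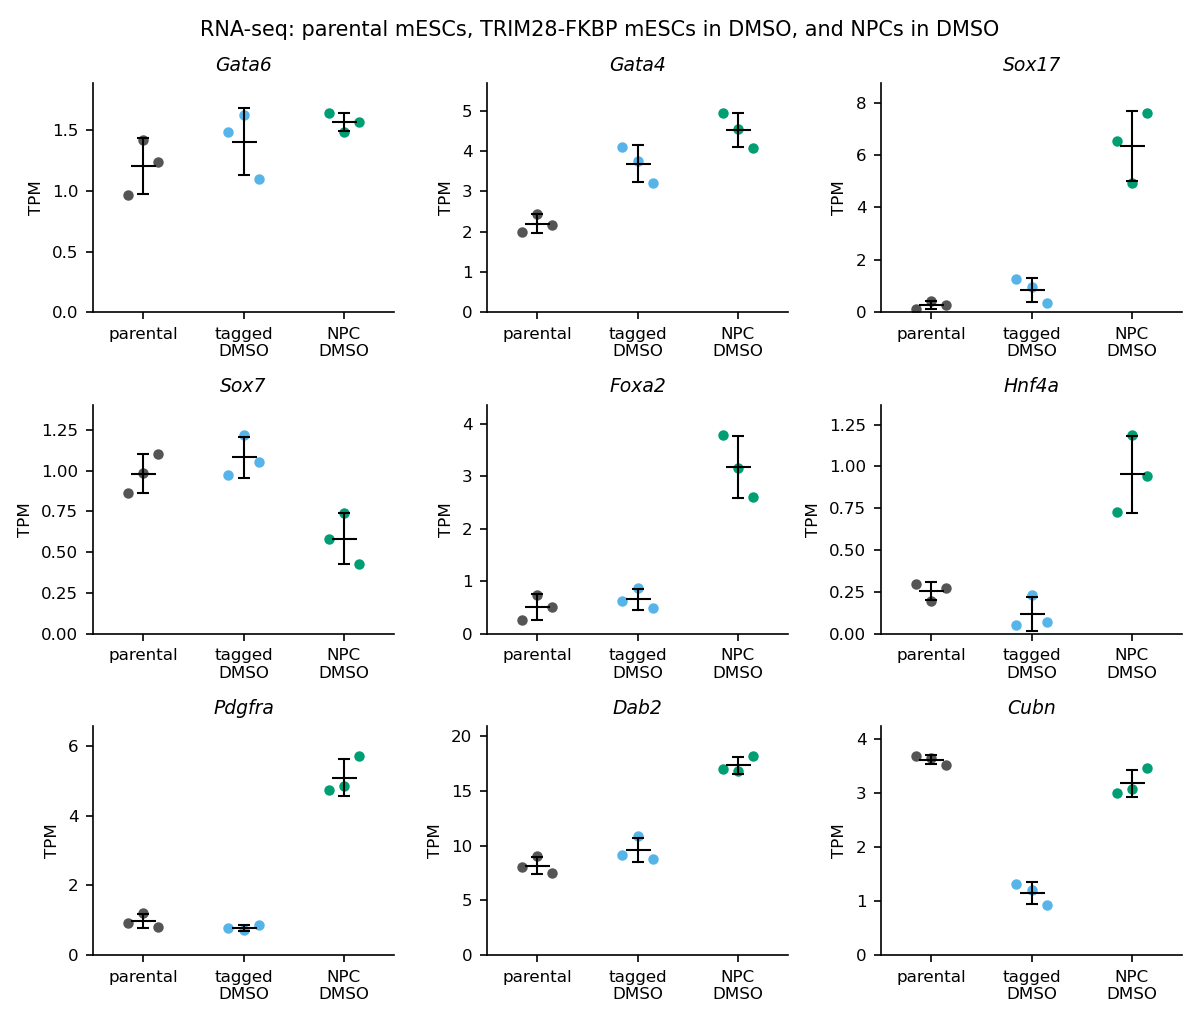
RNA-seq level (TPM, linear axis from 0) of each endoderm gene in untreated parental mESCs, tagged mESCs in DMSO and NPCs in DMSO. Points are libraries and bars the mean ± SD of 3. *Cubn* is low in the tagged line alone, and *Sox17*, *Foxa2*, *Hnf4a* and *Pdgfra* are high in NPCs.

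Over all 10 RNA-seq groups, *Sox17* was highest at 96 h (22.9 ± 1.83 TPM), then in NPCs (6.35 ± 1.34) and shREPEATS cells in dTAG-13 (3.91 ± 0.645 TPM), with no overlap between these 3, and lowest in parental cells (0.281 ± 0.155 TPM). *Dab2* was highest at 96 h (39.5 ± 2.26 TPM), then at 24 h (18.8 ± 0.375) and in NPCs (17.3 ± 0.729 TPM), with no overlap between neighbours. *Gata6* was highest at 96 h (7.25 ± 0.309 TPM), followed by the shREPEATS groups in DMSO and in dTAG-13 with Dox (2.80 ± 0.206 and 2.77 ± 0.133 TPM), which overlapped. *Pdgfra* led in NPCs (5.09 ± 0.535 TPM) and *Cubn* in parental cells (3.62 ± 0.0828 TPM). Levels are set across kits here, total RNA for shREPEATS and poly-A RNA for the rest.

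At the gene starts the deposited ChIP-seq peaks were few. Peaks were called in each library separately and at unequal numbers, so each library was limited to the number of the smallest of its mark, by fold enrichment over input, and a gene was counted where a peak overlapped 1 kb either side of its annotated start. None of the 9 genes had an H3K27Ac peak there in any of 6 libraries, against 22.3% to 41.4% of 21951 protein-coding starts, and none a RNAPII peak in any of 4 (21.1% to 27%). Among all deposited peaks, *Cubn* had a weak H3K27Ac peak at its start in DMSO replicate 3 (fold enrichment 2.69). Other annotated transcript starts were not counted. Among all deposited peaks, such a start was overlapped at *Dab2* by H3K27Ac in DMSO replicates 2 and 3 and 24 h replicate 2. The same held for MED23 at *Gata4* and *Dab2* in both DMSO libraries, and for H3K9me3 at *Sox17* in 24 h replicate 2. H3K9me3 peaks at starts were rare in general (0.346% to 0.601%), and none of the 9 had one. These are counts of called peaks and were not tested.

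MED23 peaks were present at the starts of *Gata6*, *Foxa2* and *Pdgfra* in both DMSO libraries and of *Sox17* in 1, that is at 4 and 3 of 9 genes, against 27.1% and 27.4% of protein-coding starts. After 24 h of dTAG-13 only *Gata6* kept one, in both libraries (16.9% and 16.8% of starts). Fold enrichment at *Foxa2* was 25.1 and 30.2 in DMSO, the highest of the 9 genes, and among all deposited peaks 2.71 in 1 library and none in the other at 24 h. At *Gata6* it was 18.3 and 20.8 in DMSO and 3.73 and 3.29 at 24 h. *Pdgfra* had 8.60 and 8.38 in DMSO and none at 24 h. The *Sox17* start had 9.07 and 7.52 in DMSO and none at 24 h, the second value below the limit on peak number. *Sox7* had weaker peaks of 3.96 and 3.09 in DMSO, both below that limit, and none at 24 h. The MED23 libraries hold 63045 and 58925 peaks in DMSO and 15335 and 14551 at 24 h, so fewer peaks after treatment were a property of the whole libraries.

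**Figure D5:**
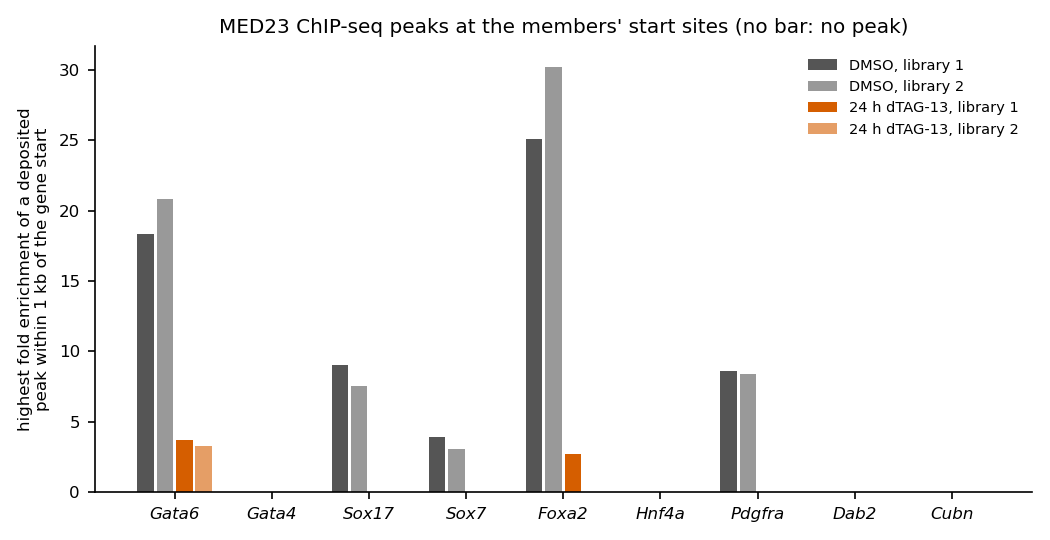
Highest fold enrichment over input of any deposited MED23 peak within 1 kb of each gene's start, in 2 DMSO and 2 libraries after 24 h of dTAG-13 (1 bar per library, no bar where no peak was called). *Foxa2* and *Gata6* stand highest in DMSO, at 18.3 to 30.2, and all values at 24 h are under 4.

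The DMSO MED23 peak at *Foxa2* spans all 3 of its RefSeq promoters, including promoter 1 with the GATA match printed above. *Pdgfra* promoter 1 held a peak of 2.87 and 4.62 in DMSO. At *Dab2*, promoter 1 held no peak of any of the 4 marks, whereas the CpG-richer promoter 2 held MED23 at 4.13 and 2.7 in DMSO and none at 24 h, with H3K27Ac in 2 of 3 DMSO libraries (2.48 and 2.94) and 1 of 3 at 24 h (3.75). Both DMSO MED23 peaks at promoter 2 lay below the limit on peak number, so the lack of a called peak at 24 h cannot be read as a loss. *Dab2* RNA was higher at 24 h (log2 0.94), and its relation to MED23 was not tested.

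Regions with MED23 in all 4 libraries lay within 10 kb of the starts of *Gata6*, *Sox17* and *Cubn*, 3 of 9 genes, against 24.1% of protein-coding starts. Fewer MED23 peaks at 24 h were a property of the whole libraries, and fold enrichment at the *Gata6* start fell as well. The regions of *Sox17* and *Cubn* were chosen after their values were seen. MED23 at 24 h was lower than in DMSO in the *Sox17* region and overlapped DMSO in the *Cubn* region. The *Sox17* region was bounded by the peaks of both 24 h libraries, the *Cubn* region by those of all 4 libraries. Their middle 300 bases are given on the plus strand.
Sox17 region, chr1:4492805-4493104: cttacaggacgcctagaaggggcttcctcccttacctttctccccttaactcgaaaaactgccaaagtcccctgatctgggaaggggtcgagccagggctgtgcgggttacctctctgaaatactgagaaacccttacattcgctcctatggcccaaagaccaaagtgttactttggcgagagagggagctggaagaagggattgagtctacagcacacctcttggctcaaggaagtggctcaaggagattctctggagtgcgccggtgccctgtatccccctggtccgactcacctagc
Cubn region, chr2:13500327-13500626: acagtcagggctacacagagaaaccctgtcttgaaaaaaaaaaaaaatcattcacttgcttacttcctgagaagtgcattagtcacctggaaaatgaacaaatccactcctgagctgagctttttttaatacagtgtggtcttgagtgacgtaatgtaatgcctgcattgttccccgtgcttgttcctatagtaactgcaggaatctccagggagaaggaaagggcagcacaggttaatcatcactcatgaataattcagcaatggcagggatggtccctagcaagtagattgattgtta
The *Sox17* region (4492574 to 4493334, 761 bases) lies inside the gene, 4020 bases from its start, and the stretch shown is intronic in the main coding transcripts apart from its end. Its MED23 fold enrichment was 18.9 and 17.7 in DMSO and 4.59 and 5.94 at 24 h. *Sox17* RNA at 24 h was higher at an adjusted p below 0.05 (limma), but by under 2-fold and with overlapping groups. It holds no soft-masked repeat. The *Cubn* region (13500238 to 13500714, 477 bases) lies 8425 bases upstream of the start, and 44.9% of it is soft-masked as repeat. MED23 there was 13 and 9.86 in DMSO and 10.4 and 10.2 at 24 h, values that overlapped, and H3K27Ac was called in 1 of 3 DMSO libraries (2.74) and 2 of 3 at 24 h (3.07 and 3.09).

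H3K9me3, the mark laid down downstream of TRIM28, was present near 1 endoderm gene in a region with no called peak at 24 h. The region lies 8626 bases upstream of the *Gata4* start, at chr14:63280318-63280645, and had peaks in 3 of 3 DMSO libraries (fold enrichment 4.19, 4.69 and 3.29) and in 0 of 3 at 24 h. It is a simple repeat, and its middle 300 bases are 50 copies of gcagag. Of 61392 regions marked in all 3 DMSO libraries, 20745 (33.8%) overlapped no peak at 24 h, and 9.38% of protein-coding starts have such a region within 10 kb. All deposited peaks were used here. The 24 h libraries hold 11474, 105690 and 147611 peaks, against 104579 to 126470 in DMSO, so a missing peak in 24 h replicate 1 says little. *Gata4* itself read 4.46, 4.53 and 4.1 TPM at 24 h, overlapping with DMSO.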

How the data were processed

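RNA-seq values were TPM per gene that the authors made with STAR 2.7.5a and StringTie 2.0.6 after trimming with cutadapt 2.4, on mm10, per the labels. For nascent RNA the authors deposited FPKM, made with SLAM-DUNK and htseq-count on GENCODE genes, and divided by the gene span. ChIP-seq peaks were called by the authors per library with MACS2, with deposited columns of fold enrichment (a ratio to input), pileup signal and −log10 p- and q-values. Fold enrichment ranked the peaks, and the signal and −log10 columns were not used further. No read counts were used for RNA-seq, so its depth is unknown in absolute terms. Relative depth was taken from 6791 genes clearly expressed in every library. It is the median over these genes of coverage relative to each gene's median over libraries. Relative depth ran from 0.318 (24 h replicate 1) to 1.77 (parental replicate 3), and the TT-SLAM-seq scaling totals from 6481768 to 24264624 reads.

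The 30 RNA-seq and 12 TT-SLAM-seq libraries were grouped by their GEO titles, 3 per group. log2(value + 0.5) was fitted with limma 3.58.1 (R 4.3.3) over all genes that reached 1 TPM (0.5 FPKM) in 3 or more libraries of the fit, with Benjamini-Hochberg adjustment over all genes tested, and changed meant an adjusted p below 0.05 and over 2-fold. The time course, the shREPEATS line, the cell types and the TT-SLAM-seq libraries were fitted apart. The fit was tested on simulated data. A fold change on this scale understates that of low genes. Recovered reads were tested with limma voom at a minimum of 10 reads. Tables and plots used Python 3.11.15, pandas 2.3.3, numpy 2.4.6 and matplotlib 3.10.9. The endoderm genes and all other lists were chosen with earlier results of these data known. Named outside the 9 genes were changed members of the lists, list members at 0 (chosen after their values were seen) and, for each gene, the 2 with the highest r, and 1 changed gene of the endoderm list is not reported here. dTAG-13 acts on the protein, so *Trim28* RNA (623.8 ± 2.28 TPM in DMSO, 191.7 ± 10.2 TPM at 96 h) does not check the degradation. Hi-C, single-cell RNA-seq and input libraries were not used here.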

Additional observations from a re-analysis of the deposited data

Results flagged for a closer look

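By the interaction term of the limma fit, 2 of the 5 tested endoderm genes responded to 24 h of dTAG-13 differently in the 2 tagged lines at an adjusted p below 0.05, as did 51.4% of all genes tested. With no minimum *Sox7* (0.93, adjusted p = 0.00551) and *Foxa2* (0.67, adjusted p = 0.0346) passed as well. The response of *Sox17* in the shREPEATS line exceeded that in the time course by 1.50 on the log2 scale (adjusted p = 0.00368), with 3 of 3 dTAG-13 libraries above 3 of 3 DMSO libraries in the shREPEATS line and overlapping groups in the time course. The response of *Dab2* differed by -0.70 (adjusted p = 0.000776), with 3 of 3 treated libraries above all controls in the time course, while in the shREPEATS line the lowest treated and the highest control library both read 13.2 TPM and the difference did not pass (log2 0.23, adjusted p = 0.0708). Library kit cannot be told apart from the line, nor can the Dox pre-treatment of the notes, if it was given.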

How the results depend on the processing

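Of 770 alternatives for single endoderm genes, 761 kept the call, 7 gained one and 2 lost one (*Cubn* in NPCs). The sign turned in 19, 6 of them with centred libraries, all of differences that were not called. The 24 h RNA-seq count of 0 changed genes became 1 with a pseudocount of 0.1 and 1 with centred libraries (*Sox7* in both), and ranged from 0 to 1 when 1 library was left out (*Dab2*, 1.03 without DMSO replicate 2). Leaving out the shallow 24 h replicate 1 changed no count. With a mean of at least 5 TPM required, at most 2 of the genes could be tested, and the counts were 2 at 96 h against DMSO, 2 at 96 h against 24 h, 0 for both shREPEATS comparisons, 0 for parental cells, 0 for NPCs and 0 for the interaction. The parental count of 1 became 2 with a pseudocount of 0.1 (*Sox17*, -1.26) and ranged from 1 to 2 with 1 library left out (*Sox17* without tagged DMSO replicate 3). The TT-SLAM-seq count of 0 at 24 h became 3 from recovered reads with the authors' totals and 1 with median-ratio size factors. For MED23 the DMSO count of 3 genes became 5 with all deposited peaks, 4 with a 5 kb window and 2 with 0.5 times the number of peaks, and the 24 h count of 1 became 2 with a 5 kb window, 0 with 0.5 times the number of peaks, and 2 from any annotated transcript start, an alternative added after the data were seen. The cause of these shifts was not tested beyond the number of genes that each setting admits.

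Replicate numbers did not pair the libraries (same-number correlations between -0.20 and 0.18). With the replicate number as a block no count moved, 4 genes at 96 h included. Depth limits *Sox17*, *Foxa2* and *Hnf4a* in nascent RNA, and levels under 1 TPM in RNA-seq.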
